A study of Mus musculus with 4 samples.

Results

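The IL-7 and IL-2 receptor to STAT5 axis was described here through 10 mouse genes, picked by name with earlier results of these data known. They are the receptor chains Il7r, Il2ra, Il2rb and Il2rg and the kinases Jak1 and Jak3. The others are the transcription factors Stat5a and Stat5b and the feedback inhibitors Socs1 and Cish. All 10 were found in a RefSeq table of 21887 protein-coding genes (chromosomes 1 to 19 with X and Y). The readout was dimethylation of lysine 79 of histone H3 (H3K79me2), mapped by chromatin immunoprecipitation and sequencing (ChIP-seq) in double negative thymocytes. The cells came from C57BL/6 haematopoietic stem cells (HSCs) that were cultured on OP9-DL1 stromal cells until the DN3 stage. Each culture held 2 ng/mL IL-7, the ligand of the receptor described here, and 5 ng/mL Flt-3L. There were 2 ChIP libraries: the control was treated with DMSO, and the inhibitor library came from cells treated with A939572, an inhibitor of the desaturase SCD1, which makes oleic acid. In the text, control list and inhibitor list stand for the peaks the authors called in each. With 1 ChIP library per condition, no value has a replicate error, and no difference below has a replicate check or a p-value. The labels do not give how many animals the stem cells came from, and how far OP9-DL1 cells were removed before the immunoprecipitation is not given in the sources used here.

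In this axis, IL-7 binds a receptor made of the IL-7 receptor alpha chain and the common gamma chain, and IL-2 binds one made of an alpha, a beta and the same gamma chain. JAK1 and JAK3 bind the inner ends of these chains and phosphorylate STAT5, which enters the nucleus and activates genes for survival and growth. CISH and SOCS1, induced by the same signal, switch it off. Thymocytes before the pre-T cell receptor checkpoint depend on IL-7, and the IL-2 receptor alpha chain (CD25) on the surface marks the DN2 and DN3 stages. DOT1L adds H3K79me2 during transcription, so that active genes carry it most in their early part.

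Whether promoter sequence relates to where the peaks began was not tested. The promoters of 4 of the genes are shown for reference. They are the receptor genes Il7r and Il2ra and the feedback genes Socs1 and Cish, from RefSeq on build GRCm38.p6, the assembly named mm10. Each runs 5′ to 3′ on the strand of the gene, from 250 bases before a listed transcription start to 50 bases from it. Capitals mark matches to TTCNNNGAA, the palindrome that STAT5 dimers bind, which reads the same on both strands. Il7r lies on the minus strand (chr15:9529827-9530126), Il2ra on the plus strand (chr2:11642542-11642841), Socs1 on the minus strand (chr16:10785487-10785786) and Cish on the plus strand (chr9:107296409-107296708).
Il7r: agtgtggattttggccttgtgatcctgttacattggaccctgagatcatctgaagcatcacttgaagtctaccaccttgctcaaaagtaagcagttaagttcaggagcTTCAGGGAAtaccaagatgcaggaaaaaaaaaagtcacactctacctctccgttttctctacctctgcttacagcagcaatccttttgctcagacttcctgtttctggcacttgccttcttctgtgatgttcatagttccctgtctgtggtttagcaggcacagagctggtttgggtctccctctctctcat
Il2ra: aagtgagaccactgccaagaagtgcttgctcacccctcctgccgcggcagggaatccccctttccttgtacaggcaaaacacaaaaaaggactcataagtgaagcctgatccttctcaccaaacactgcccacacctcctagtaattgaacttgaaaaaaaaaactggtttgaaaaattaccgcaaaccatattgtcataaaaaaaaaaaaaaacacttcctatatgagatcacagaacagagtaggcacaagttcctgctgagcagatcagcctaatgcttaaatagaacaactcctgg
Socs1: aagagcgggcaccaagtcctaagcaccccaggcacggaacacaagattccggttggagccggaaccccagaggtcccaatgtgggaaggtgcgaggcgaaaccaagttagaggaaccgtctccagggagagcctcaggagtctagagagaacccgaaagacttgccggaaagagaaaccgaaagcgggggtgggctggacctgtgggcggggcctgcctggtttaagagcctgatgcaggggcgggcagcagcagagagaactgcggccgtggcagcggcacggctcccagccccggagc
Cish: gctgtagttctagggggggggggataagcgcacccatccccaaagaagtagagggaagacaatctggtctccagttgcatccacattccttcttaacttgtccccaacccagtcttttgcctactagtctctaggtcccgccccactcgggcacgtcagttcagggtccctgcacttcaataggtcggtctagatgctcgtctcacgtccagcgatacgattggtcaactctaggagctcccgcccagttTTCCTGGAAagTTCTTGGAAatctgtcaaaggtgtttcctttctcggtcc

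Cish held 2 matches, TTCCTGGAA, which began on the listed start itself, and TTCTTGGAA, which began 11 bases further on. The Il7r window held 1, TTCAGGGAA, and no other of the 11 windows listed for 9 of the genes held any; Il2rb has no entry in the promoter table. Among all 32851 promoter windows of 300 bases, 8.30% held at least 1 match and 0.457% held at least 2. A match is a string of letters and not a shown binding site.

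H3K79me2 peaks covered much of the axis in both libraries, and more of it in the inhibitor library. Of the 10 genes, 7 lay under control peaks over 50% or more of their body, as did 5.47% of all protein-coding genes. Under inhibitor peaks this held for 8 of the 10 and for 26.1% of all protein-coding genes. A gain, meaning a covered percent that was higher with the inhibitor by 25 points or more, was seen at 9 of the 10 genes (30.1% of all genes), and a loss of that size at 0 (3.07%). The median difference was 34.2 points, and over all protein-coding genes it was 0. The median gene of all was hardly covered, at 2.24% in the control and 0.446% in the inhibitor list. The mean difference was 35.5 points over the 10 genes and 15.0 points over all protein-coding genes. Across the 10 gene bodies, which span 349.9 kb, control peaks covered 184.7 kb and inhibitor peaks 304.7 kb. Of the control length, 98.4% also lay under an inhibitor peak. Inhibitor peaks covered 304.7 of the 349.9 kb, so a high share would follow largely from that coverage. The same share over all genes was not computed.

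**Figure D1:**
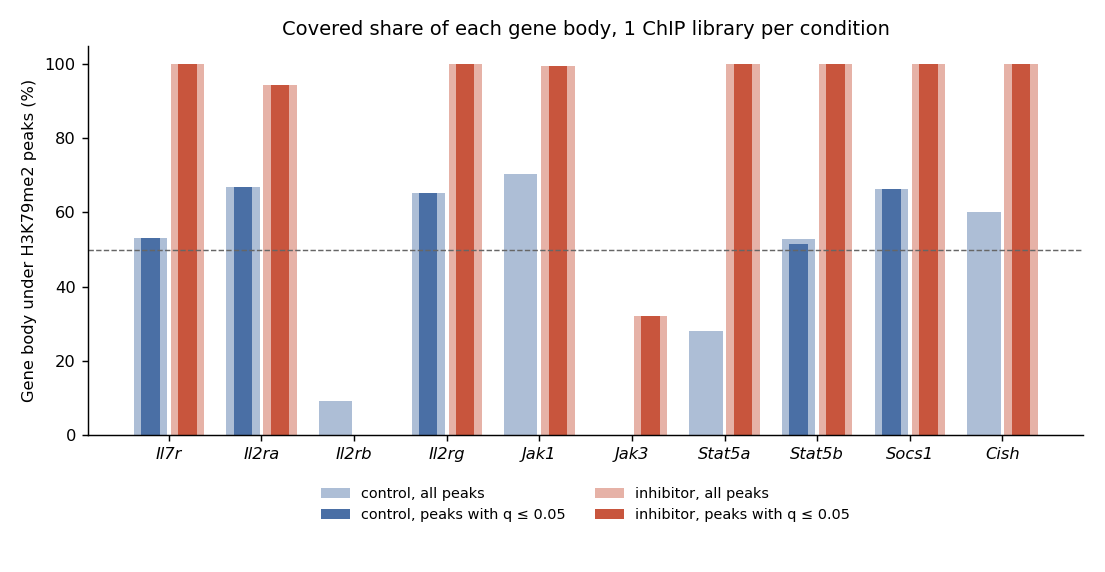
Percent of each gene body under H3K79me2 peaks in the control (blue) and inhibitor (red) lists, 1 library each; wide pale bars count all peaks, narrow dark bars only peaks with q of at most 0.05, and the dashed line marks 50%. Of the 10 genes, 9 stand higher in the inhibitor list, Jak1, Stat5a, Cish and Il2rb have only a pale control bar, Jak3 has no control bar, and Il2rb has no inhibitor bar.

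The inhibitor list held fewer peaks over these genes, and more of them passed its own q threshold. In the control list 22 distinct peaks overlapped the 10 genes, of which 5 had a q (the authors' p-value after correction for many tests) of at most 0.05. In the inhibitor list 8 distinct peaks did, and all 8 had such a q. At that q, 5 genes stood at 50% or more under control peaks (1.33% of all genes) and 8 under inhibitor peaks (19.6%), and a gain of 25 points or more again held for 9 (26.3%). Of the 8 genes at 50% or more under inhibitor peaks, 7 reached that level under control peaks too, where 16.7% of all such genes did. At q of at most 0.05 these were 5 of 8 and 6.81%. The control list as a whole is weak: only 0.643% of its 124962 peaks reached that q, against 18.6% of 35018 in the inhibitor list. The number of reads is unknown for both, so the share that depth has in these differences was not tested.

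Il7r encodes the IL-7 receptor alpha chain (chromosome 15, 9506159 to 9529941, mm10, minus strand, 23.8 kb). Control peaks covered 53.2% of its body and inhibitor peaks 100%, a difference of 46.8 points. Each list had 1 peak over the gene. The control peak spanned 17.8 kb with a fold enrichment over local background of 2.36 and a −log10 q of 1.73. It held the 5′ part of the gene and ran 5.11 kb beyond its 5′ end. The inhibitor peak spanned 30.2 kb with a fold of 3.79 and a −log10 q of 8.30, and ran 2.54 kb beyond the 5′ end and 3.85 kb beyond the 3′ end. The first 5 kb from the start were covered over 100% in both lists, so the lists differed in the 3′ part of the gene and not at its start.

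Il2ra encodes CD25, the alpha chain of the IL-2 receptor (chromosome 2, 11642792 to 11693194, plus strand, 50.4 kb). Control peaks covered 66.8% of it and inhibitor peaks 94.5%, and both covered 100% of its first 5 kb. The control peak spanned 36.7 kb, from 3.08 kb before the gene to 33.7 kb into it, with a fold of 3.41 and a −log10 q of 8.16. This was the control peak with the highest fold of the 22 over the 10 genes, and 99.9% of all control peaks had a fold no higher. The inhibitor peak spanned 108 kb with a fold of 4.87 and a −log10 q of 17.3. It began 60.8 kb before Il2ra and took in Rbm17, a gene for a splicing factor, which stood at 22.9% under weak control peaks and at 100% under this one. Both libraries thus held a strong peak over the gene of the surface protein that marks this stage.

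Il2rg encodes the common gamma chain (chromosome X, 101264385 to 101268255, minus strand, 3.87 kb). Control coverage was 65.3%, from 1 peak of 2.53 kb with a fold of 2.66 and a −log10 q of 2.43. That peak began 251 bases past the transcription start and lay wholly inside the gene. In the inhibitor list 1 peak of 11.5 kb with a fold of 3.32 and a −log10 q of 5.18 covered 100% of it. The inhibitor peak also covered all of Gm614 and part of Foxo4, a forkhead factor gene, and 33.7% of its length lay in Il2rg. Foxo4 and Gm614 held no control peak.

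Il2rb encodes the beta chain shared by the IL-2 and IL-15 receptors (chromosome 15, 78479256 to 78511621, 32.4 kb). It was the exception among the 4 receptor genes. The control list held 2 peaks in it, of 1.84 kb and 1.09 kb, with folds of 1.62 and 1.63 and a −log10 q of 0, which covered 9.04%. The inhibitor list held no peak in the gene or within 10 kb of it. At q of at most 0.05 both lists were at 0% over Il2rb, so the difference of −9.04 points rests on weak peaks alone.

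**Figure D2:**
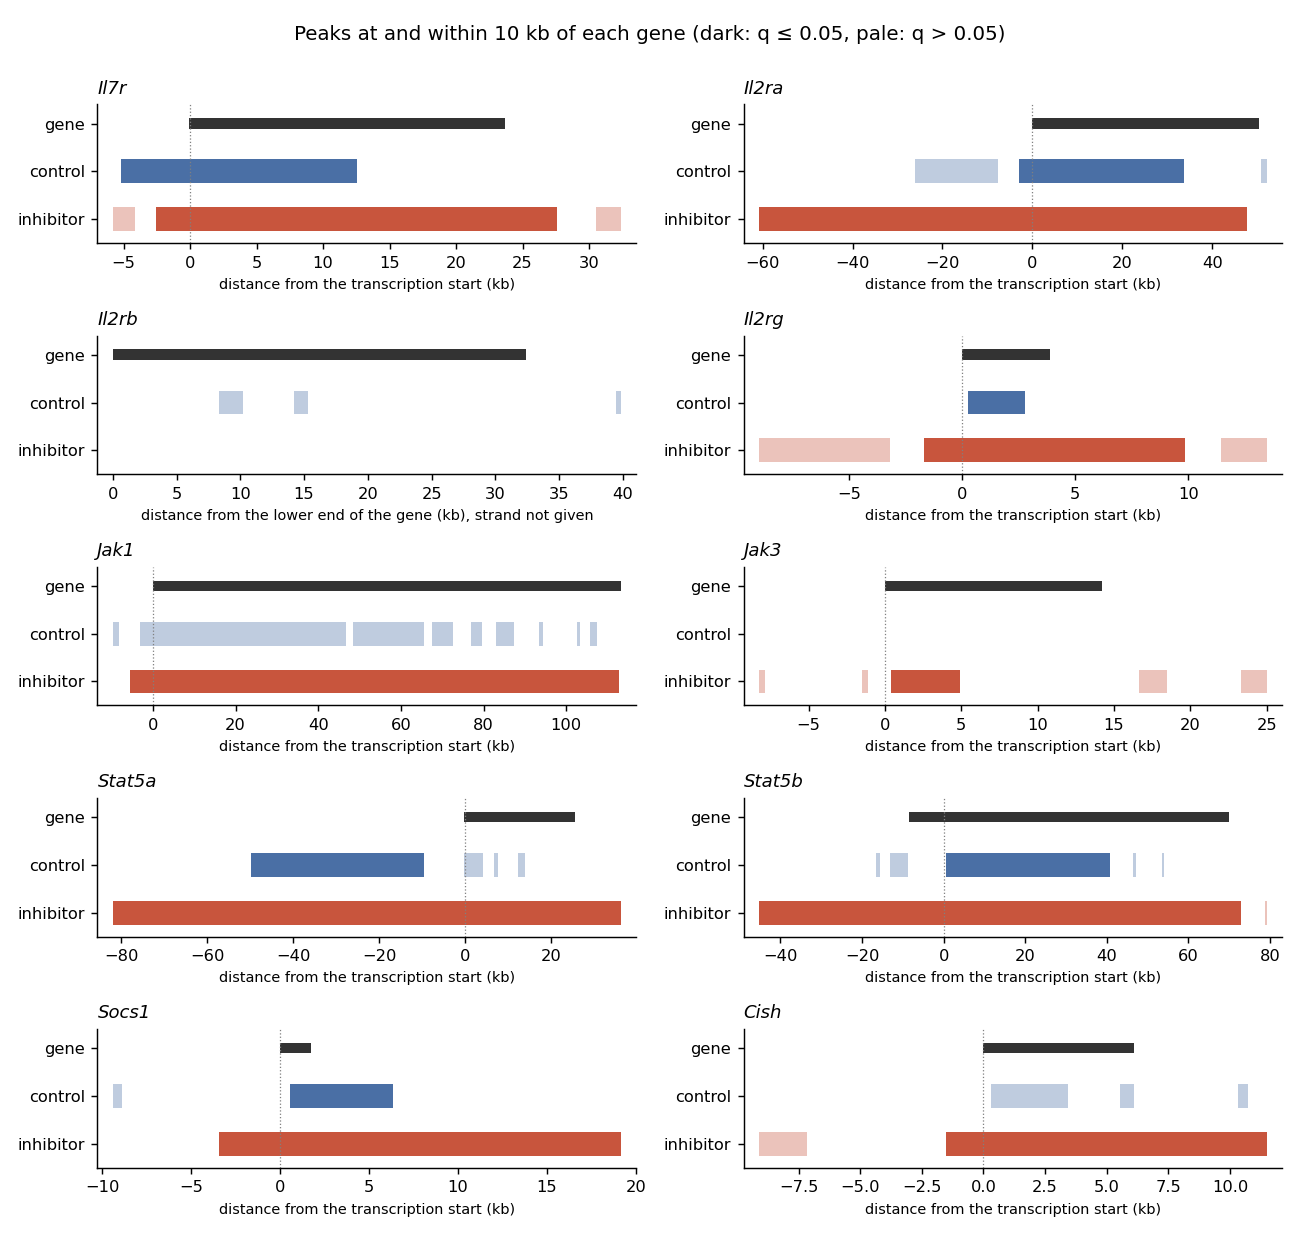
Peaks at each gene and within 10 kb of it, drawn to scale against the distance in kb from the most upstream listed transcription start (dotted line; for Il2rb from the lower end of the gene); black bars are gene bodies, blue and red bars are control and inhibitor peaks, dark at q of at most 0.05 and pale above. Inhibitor peaks run as 1 block across all or nearly all of each gene except Jak3, where 1 peak lies near the start, and Il2rb, which has none.

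The kinase genes differed from each other. Jak1 (chromosome 4, 101151974 to 101265282, minus strand, 113 kb) had a control coverage of 70.3%, the highest of the 10 genes, but from 8 separate peaks that all had q above 0.05. The widest of them spanned 49.8 kb around the start of the gene, with a fold of 2.17 and a −log10 q of 1.20, just under the 1.30 that a q of 0.05 needs. The inhibitor list held a single peak of 118 kb over Jak1, with a fold of 5.19 and a −log10 q of 16.3, which covered 99.7% of the gene. It had the highest fold of the 8 inhibitor peaks over the axis. Jak1 overlaps the end of its neighbour Raver2, of which this peak touched 0.0108%.

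Jak3, the kinase that pairs with the common gamma chain (chromosome 8, 71676383 to 71690577, plus strand, 14.2 kb), held no control peak. The inhibitor list held 1 peak of 4.55 kb in it, with a fold of 3.51 and a −log10 q of 5.34, which covered 32.1% of the body. This peak began 372 bases past the start and covered 91.1% of the first 5 kb, so the signal lay at the 5′ end alone. Jak3 overlaps Insl3, another coding gene, and its peak is the narrowest of the 8 in the inhibitor list. It was the 1 gene of the axis with no control peak of any strength and a strong inhibitor peak.

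Stat5a and Stat5b, which lie head to head on chromosome 11 and encode the STAT5 proteins, shared 1 inhibitor peak. That peak spanned 118 kb (100777686 to 100895858) with a fold of 4.34 and a −log10 q of 14.4, covered 100% of both genes and ran on into Stat3. In the control list the locus was broken up. Stat5b (100780731 to 100859004, minus strand, 78.3 kb) was covered over 52.7%, mainly by a peak of 40.2 kb with a fold of 2.23 and a −log10 q of 1.52 that began 530 bases past its most upstream listed start. Stat5a (100859351 to 100885169, plus strand, 25.8 kb) was covered over 27.9% by 3 peaks with folds of 1.48 to 1.72, all with q above 0.05. At q of at most 0.05 the control values were 51.4% for Stat5b and 0% for Stat5a, so only Stat5b of the pair held a control peak at that q. Stat3, the neighbour beyond Stat5a, lay under control peaks over 56.4% of its body and under inhibitor peaks over 96.4%. A shared peak cannot be given to 1 of the genes below it, so the inhibitor values of Stat5a and Stat5b are not separate measurements.

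The feedback inhibitors are short genes, and their inhibitor peaks and the control peak at Socs1 ran past them. The control peaks at Cish lay wholly inside the gene. Socs1 (chromosome 16, 10783808 to 10785536, minus strand, 1.73 kb) lay under control peaks over 66.3% of its body and under inhibitor peaks over 100%. Its control peak spanned 5755 bp with a fold of 3.27 and a −log10 q of 7.57, and its inhibitor peak spanned 22.6 kb with a fold of 2.57 and a −log10 q of 4.47. Each fold is a mean over a peak of a different width, against the background of its own library. Of all control peaks 99.9% had a fold no higher than that at Socs1, and of all inhibitor peaks 88.0%, ranks that stand within each list and show no change. When only peaks with −log10 q of at least 5, or only those with a fold of at least 3, were kept, the order turned: Socs1 was then covered by control peaks alone, a difference of −66.3 points. The inhibitor peak also covered 100% of Tnp2, a gene for a sperm nuclear protein that held no control peak.

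Cish (chromosome 9, 107296659 to 107302784, plus strand, 6.13 kb) had a control coverage of 60.2% from 2 peaks of 3135 bp and 555 bp, with folds of 2.11 and 1.79 and q above 0.05. In the inhibitor list 1 peak of 13.0 kb, with a fold of 3.04 and a −log10 q of 5.01, covered 100%. The wider control peak began 292 bases past the start, which left both STAT5 motif matches printed above outside it. The inhibitor peak began 1.51 kb before the gene and covered them. At q of at most 0.05 the difference at Cish was 100 points, as at Stat5a, and it was 99.7 points at Jak1.

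**Figure D3:**
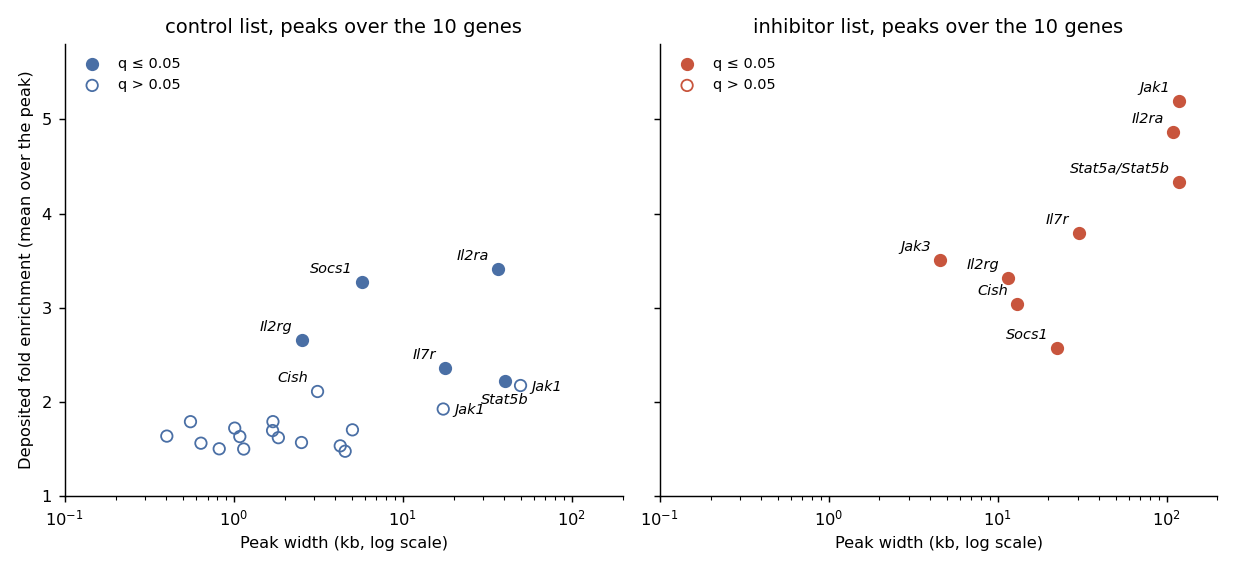
Width (kb, log scale) and deposited fold enrichment of each peak over the 10 genes, in the control list (left, 22 peaks) and the inhibitor list (right, 8 peaks); filled points have q of at most 0.05. The 3 widest inhibitor peaks, over Jak1, Stat5a with Stat5b, and Il2ra, span 108 to 118 kb with folds of 4.34 to 5.19, and most control peaks lie below a fold of 2.

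The lists also differed at the start sites. For 9 genes with a listed start, the window from 250 bases before the most upstream start to 50 bases from it was touched by a control peak in 4 (Il7r, Il2ra, Jak1 and Stat5a) and by an inhibitor peak in 8. At q of at most 0.05 these were 2 (Il7r and Il2ra) and 8. The control peak nearest to the start began 251 bases past it at Il2rg, 292 at Cish, 530 at Stat5b and 583 at Socs1. Counting every listed start gave 11 windows for the 9 genes. A control peak touched 6 of the 11 and an inhibitor peak 10. With only peaks that passed the q threshold, the numbers fell to 3 for the control and stayed at 10 for the inhibitor. The other listed start of Stat5b, at 100822570, lay under such a control peak. Over all 32851 promoter windows, from 27025 genes, 8.71% were touched by a control peak and 26.1% by an inhibitor peak. With the q threshold the shares were 1.46% and 21.4%. Jak3 was the 1 gene whose start was under no peak in either list, and its inhibitor peak also began downstream.

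**Figure D4:**
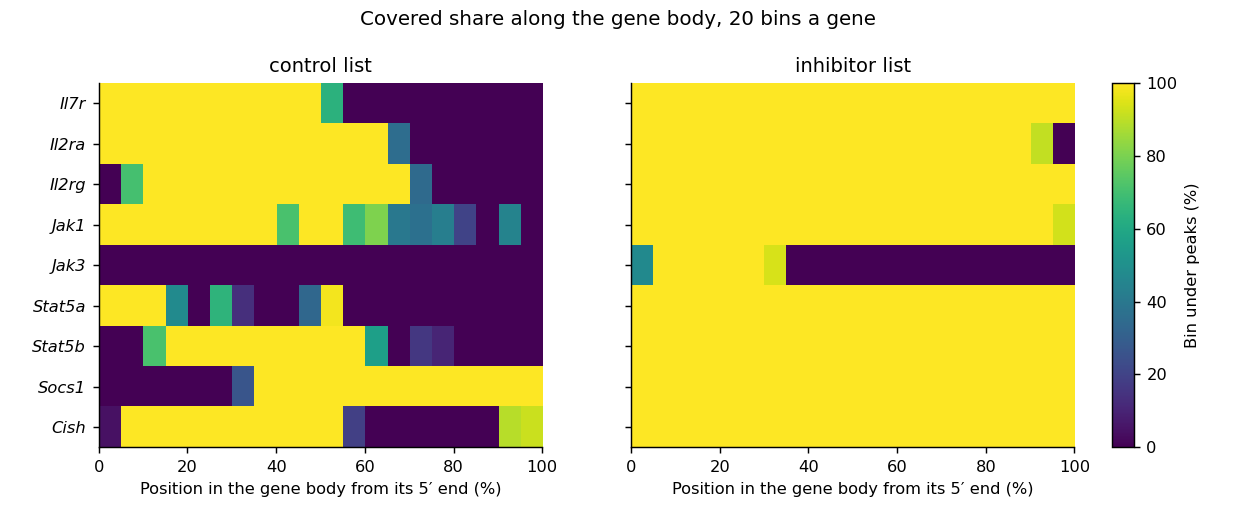
Percent of each of 20 equal bins along the gene body, from the 5′ end (left) to the 3′ end (right), under peaks of the control list (left) and the inhibitor list (right), for the 9 genes whose strand is listed. Control coverage ends partway along Il7r, Il2ra and Il2rg, and inhibitor coverage is complete or nearly so except over Jak3.

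Along the gene body, control coverage lay toward the 5′ end. In the first 50% of the body, control peaks covered a mean of 70.0% over the 9 genes, and in the last 50% a mean of 32.8%. The 5′ part was the better covered in 7 genes, the 3′ part in 1 (Socs1), and Jak3 had neither. Il7r was covered over 100% of its 5′ part and 6.41% of its 3′ part, and Il2ra over 100% and 33.6%. In the inhibitor list the means were 96.0% and 87.6%, with 6 genes equal, at 100% in both parts. Of the 17492 protein-coding genes with a listed strand, 36.7% had the better covered 5′ part and 18.2% the 3′ part in the control list. In the inhibitor list these shares were 36.6% and 8.51%. There 54.9% were equal, a share that also counts genes at 0% in both parts. Over all 17492 genes the means were 14.7% and 8.72% in the control list and 33.1% and 20.8% in the inhibitor list. In the first 5 kb alone, 8 of the 9 genes stood at 50% or more under control peaks (13.8% of all genes) and 9 under inhibitor peaks (37.3%). There 4 of the 9, Il2rg, Jak3, Socs1 and Cish, gained 25 points or more from control to inhibitor (33.4% of all genes), and 0 lost as much (4.58%). Of the other genes past 25 points over the whole body, Il7r, Il2ra and Jak1 differed by 0 points there, Stat5b by 10.6 and Stat5a by 16.3. For Stat5b these 5 kb run from the listed start at 100850581, which lies inside the body, whose 5′ end is at 100859004. In the first of 20 bins from that end, control peaks covered 0% of Stat5b and inhibitor peaks 100%.

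Other genes of the pathway, 47 in 5 lists, gave the setting. Genes named below for a gain were picked for the largest differences in their lists. Over all 47, the gain from control to inhibitor was 25 points or more for 30 and a loss of that size was seen for 0; the median difference was 38.1 points. Of them, 9 stood at 50% or more under control peaks and 31 under inhibitor peaks. Of all protein-coding genes, 30.1% gained 25 points or more and 3.07% lost as much. The all-gene shares at 50% or more were 5.47% under control peaks and 26.1% under inhibitor peaks. The 10 genes of the axis had a higher median control coverage, 56.7% against 17.7%, and a median difference of 34.2 points.

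The cytokine genes lay under weak peaks alone or under none. Their median coverage was 15.7% in the control and 0% in the inhibitor list, against 2.24% and 0.446% over all protein-coding genes. Of 7 ligand genes (Il2, Il4, Il7, Il9, Il15, Il21 and Tslp), none differed by 25 points in either direction, and none had any strong peak (q up to 0.05). Il4, the 1 ligand gene over 50%, named after its values were seen, was covered over 74.1% and 57.5% by weak peaks. Il7 itself stood at 15.7% under weak control peaks and at 0% under inhibitor peaks. Of 5 other receptor genes, 2 gained 25 points or more (30.1% of all genes). They were Il4ra, the IL-4 receptor alpha chain (26.7% and 94.3%), and Il15ra, the IL-15 receptor alpha chain next to Il2ra (17.1% and 44.4%, by weak peaks alone). Crlf2, the receptor for TSLP, held no peak in either list, and Il9r stood at 0% and 4.51%.

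Among 7 other JAK and STAT genes, 5 gained 25 points or more (30.1% of all genes). Stat2, a mediator of interferon signals that overlaps another coding gene, was covered over 0% and 40.9%. The 2 that were not were Tyk2 (0% and 22.7%) and Stat4 (34.5% and 52.7%), named after their values were seen. Of 16 SOCS, phosphatase and PIAS genes, 14 gained 25 points or more, and the median difference was 47.1 points. Pias4, a SUMO ligase that binds STAT proteins, was covered over 3.88% and 87.6%. Ptpn6, which encodes SHP-1, a phosphatase that dampens cytokine signals, stood at 0% and 74.1%. Those that did not were Socs7 (14.2% and 31.1%) and Pias3 (0% in both), named after their values were seen.

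Of 12 genes known as targets or effectors of IL-7 and STAT5, 9 gained 25 points or more (30.1% of all genes). At 50% or more stood 11 under inhibitor peaks (26.1% of all genes) against 4 under control peaks (5.47%). Pim2, a survival kinase, was covered over 0% and 80.3%, and Ccnd3, the G1 cyclin of thymocytes, over 26.1% and 100%; its body overlaps that of another coding gene. The other three, named after their values were seen, were Pim1, Bcl2 and Lmna. Pim1 was covered over 100% in both lists by peaks at q of at most 0.05. Bcl2, the survival factor downstream of IL-7, was covered over 82.4% and 100%. Lmna, the nuclear lamin gene, held no peak in either list.

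**Figure D5:**
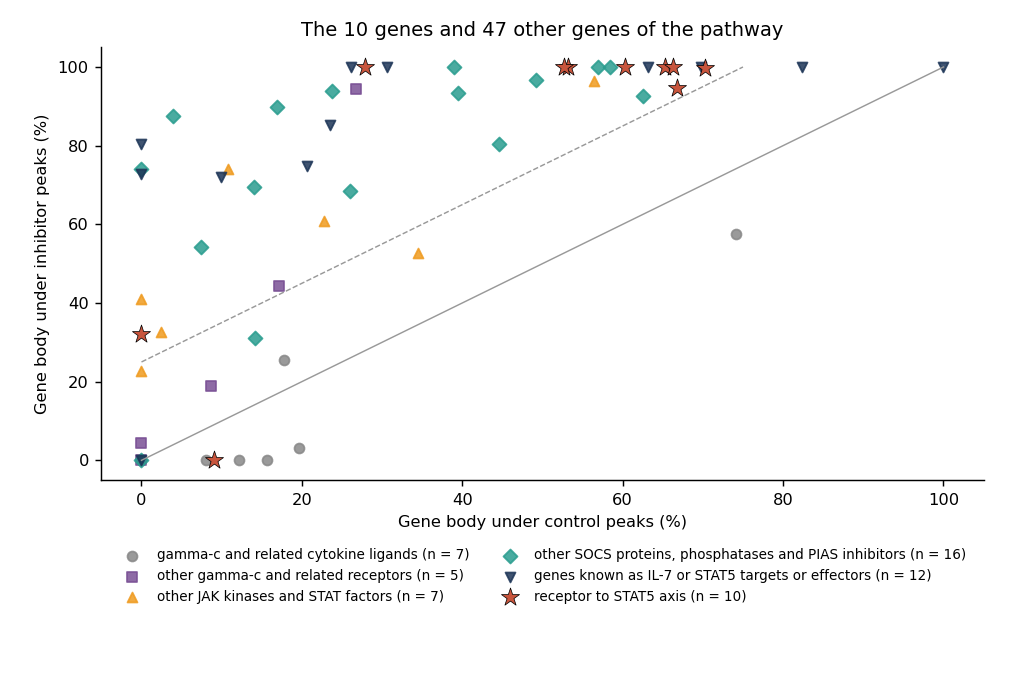
Percent of the gene body under control peaks (horizontal) and inhibitor peaks (vertical) for the 10 genes of the axis (stars) and 47 other genes of the pathway in 5 lists; the solid line marks equal values and the dashed line a difference of 25 points. Of the 10 stars, 9 lie above the dashed line, and the ligand genes lie near or below the solid line.

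The labelled cell type was checked against markers. Of 8 DN3 genes, Il2ra among them, 5 stood at 50% or more under control peaks and 7 under inhibitor peaks. Those below 50% in the control were Cd3e (0%), Ptcra (18.1%) and Notch1 (42.6%). Under inhibitor peaks Cd3e stood at 100%, Ptcra at 47.1% and Notch1 at 100%. Neither Cd3e nor Ptcra held a strong peak in the control or the inhibitor library. Among all protein-coding genes, 5.47% stood at 50% or more under control peaks and 26.1% under inhibitor peaks. Markers of other cells gave 1 and 1 of 8 for the OP9 feeder layer, 0 and 0 of 4 for B cells, 0 and 1 of 4 for myeloid cells, 2 and 2 of 5 for natural killer and innate lymphoid cells, and 0 and 0 of 4 for erythroid cells. The feeder gene was Thy1, which T cells express too, the myeloid gene was Cd68, and the innate genes were Nkg7 and Id2. Of the other 7 feeder genes, Col1a1, Col3a1 and Pdgfra held no peak in either list, and Col1a2 stood at 1.09% and 0%. Pdgfrb stood at 9.18% in the control and 45.3% in the inhibitor list, Dcn at 15.3% and 0%, and Lum at 7.94% and 0%. Of the other 3 innate genes, Klrd1 stood at 35.1% and 0% and Klrb1c at 40.2% and 0%, by weak peaks alone, and Ncr1 held no peak. Covered percents of these lists ranged from 0% to 63.7% (feeder) and 0% to 84.6% (innate) under control peaks, and from 0% to 95.0% and 0% to 100% under inhibitor peaks. Their part in the differences over the axis was not tested.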

How the data were processed

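H3K79me2 ChIP-seq was analysed for 1 control and 1 inhibitor library of mouse DN3 thymocytes; their 2 inputs are not analysed here. The authors deposited 1 broad peak list per library. BWA, MACS2 2.1.0 and build mm10 stand in the submitters' processing notes without roles, with the caller's options not given in the sources used here. Per the column order of the deposited files, each peak has a fold (a ratio to local background), a −log10 p, a −log10 q, all means over the peak, and a score that is −log10 q times 10 with the decimals dropped. Read depth is unknown.

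Touching peaks were merged and intersected (at least 1 bp) with RefSeq gene bodies of GRCm38.p6 in Python 3.11.15 (numpy 2.4.6, pandas 2.3.3); figures used matplotlib 3.10.9. A gene counted as covered at 50% or more, and as different at 25 points or more. Strand and starts came from the RefSeq promoter table, in which 9 of the 10 genes matched. Named genes were the 10 and their neighbours under the same peak. In each pathway list, up to 2 genes a direction with the largest difference among those at least 25 points apart were also named. One of the genes so named is not reported here. The 10 genes and the lists were chosen with earlier results of these data known, and the split of the body at 50% after seeing the values. Folds were ranked only within a list; where folds of both lists are printed they stand side by side. Coverage was checked on simulated intervals, where 4000 of 4000 windows equalled a per-base count.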

Additional observations from a re-analysis of the deposited data

How the results depend on the processing

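The difference kept its sign or dropped to 0 under 8 other ways of choosing peaks or windows (7 for Il2rb, which has no listed start) for the 10 genes, except at Socs1, where it was −66.3 points with −log10 q of at least 5 and −66.3 points with a fold of at least 3. Under each of those filters 2 genes were covered over at least 50% in the control list in place of 7, 1 was higher there, and the median difference was 99.8 points in place of 34.2. With q of at most 0.05 the median difference was 40.8 points. When each gene was measured over whichever 5 kb end was better covered, 5 genes gained 25 points or more, with a median difference of 21.9 points, and in the first 5 kb for 4 of 9, with a median of 16.3. With 10 kb added on each side, 2 genes were covered over at least 50% in the control list. With the gene body as it is and a threshold of 80% in place of 50%, 0 were. A difference of at least 50 points was met by 1 gene, Stat5a. Over all protein-coding genes the median difference was 0 under each of these filters and windows. Counts over all genes were taken only for the main setting, for q of at most 0.05 and for the first 5 kb. The 7 genes covered over at least 50% in the control list had less than 50 points left to gain. Further settings kept each count within 1.5 times and the median within 5 points of its value. They were restricting the control list to the inhibitor list's covered length, merging peaks within 1 kb and counting any covered base. The others were a difference of 10 points, a mean for the median, and leaving out Jak1 and Jak3, which overlap other coding genes. The control list covers 234.8 Mb and the inhibitor list 233.6 Mb, so the length restriction removed little and could change little. Merging peaks within 1 kb changed no value of the 10 genes. No paired analysis was possible because each condition had 1 ChIP library. Unknown depth and the lack of replicates limit all differences.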

Other observations

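The pair of values seen at each gene was shared by other genes to a different extent. Both covered percents lay within 5 points of those of Il2ra for 61 other protein-coding genes, the fewest among the 10, and within 5 points of those of Jak1 for 139 and of Il2rg for 149. For Il7r, Stat5a and Stat5b the numbers were 219, 201 and 215, for Socs1 150, for Cish 176 and for Jak3 447. For Il2rb, which is close to 0% in both lists, it was 1860.

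Before Il2ra, the control list held a weak peak of 18.6 kb that ended outside the gene, with a fold of 1.69 and a −log10 q of 0.0510. It lay within the inhibitor peak of 108 kb that covers Il2ra and Rbm17.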
